A study of Leymus chinensis with 14 samples.

Results

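The combined stress of low light and high salt was examined in leaves of a steppe grass grown for forage, Leymus chinensis or sheepgrass. The group with both stresses held 2 RNA sequencing libraries (low light, high salt) and was set against 3 libraries of the check group at normal light, so 5 of the 14 libraries of the series enter the main comparison. The other libraries were 3 of the low-light check, 3 of high salt at normal light and 3 of low salt at normal light. The low-salt libraries are in none of the contrasts. They enter the shared estimate of spread, the filter on low values, the scaling and the means over all 14 libraries. All plants carried the same species label, were raised on a Murashige and Skoog medium at reduced strength and were sampled at 3 weeks of age, and 20 stands as the number of days in every library name. No genotype, mutant or transgene is labelled. The check group (labelled ck) was taken as plants without added salt. The labels state neither the salt concentration nor the light level, and the extraction text mentions rice leaves. The title of the series names redox homeostasis under the combined stress as its subject. Whether replicate libraries stem from different plants is not stated. The p-values thus measure the spread between these samples alone, and that spread may be technical.

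Leaves convert light into reducing power and sugar in the chloroplast, where light-harvesting proteins, the photosystems and soluble electron carriers feed the carbon-fixing enzymes of the Calvin cycle. Shade lowers the supply of energy to this machinery. Salt makes water harder to take up and loads the cells with sodium, and plants meet it with the hormone abscisic acid (ABA), protective hydrophilic proteins, compatible solutes and pumps that move sodium out of the cytosol. Both conditions disturb the balance between the oxidants made by photosynthesis and respiration and the enzymes that remove them.

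The deposited values per assembled transcript were taken as normalised abundances, in a unit the files do not name, and were summed to loci (numbered g). After loci with a best hit in a fungus were left out, 20675 loci had a best hit in a plant, and 16021 of these passed the filter on low values (1 or more in 2 or more of the 14 libraries) and were tested. The other tested loci had no annotation or a hit elsewhere. The deposited table may be only a part of the authors' full table, so all counts and shares below cover the loci in it. Names are those of best database hits in other species, with a median protein identity of 59.6%, and near-identical copies may share reads. The 2 libraries with both stresses correlated at 0.922 on the log scale, within the 0.846 to 0.953 of replicate pairs in all groups. Fold changes are differences of log2(value + 1), a scale that shrinks the changes of scarce transcripts. Limma gave the p-values, adjusted by Benjamini-Hochberg over all 20367 tested loci. A locus was called at an adjusted p under 0.05. In bulk leaf RNA, fewer cells of a type and less RNA per cell cannot be told apart.

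Against the normal-light check, 1756 of 20367 tested loci (8.62%) were called under the combined stress, 1343 higher (6.59%) and 413 lower (2.03%). Among annotated plant loci 1107 were higher (6.91%) and 346 lower (2.16%), together 9.07% of them. The balance between higher and lower depended on the scaling between libraries. The median log2 change of all tested loci was 0.38 as deposited and 0.03 after median-of-ratios scaling, a shift of 0.35, and after scaling 487 loci were higher (2.41%) and 880 lower (4.35%). Of the 1343 higher loci 148 passed the filter on low values only through the libraries with both stresses, and of the 413 lower loci 36 only through the check. Such loci had to differ, so no p-value is given for those named below. The loci called both ways numbered 899, of which 487 were higher and 412 lower. The 100 loci with the highest mean held 23.7% and 29.7% of the summed abundance in the libraries with both stresses, against 47.2%, 41.0% and 40.2% in the check libraries. List medians are therefore given below relative to the median of all tested loci.

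The number of calls rested on single libraries. It was 150 without replicate 1 of the combined stress, when its lone library is assumed to vary like the other groups, and 495 without replicate 2. Leaving out check replicate 1, 2 or 3 gave 524, 1668 and 668 calls.

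**Figure D1:**
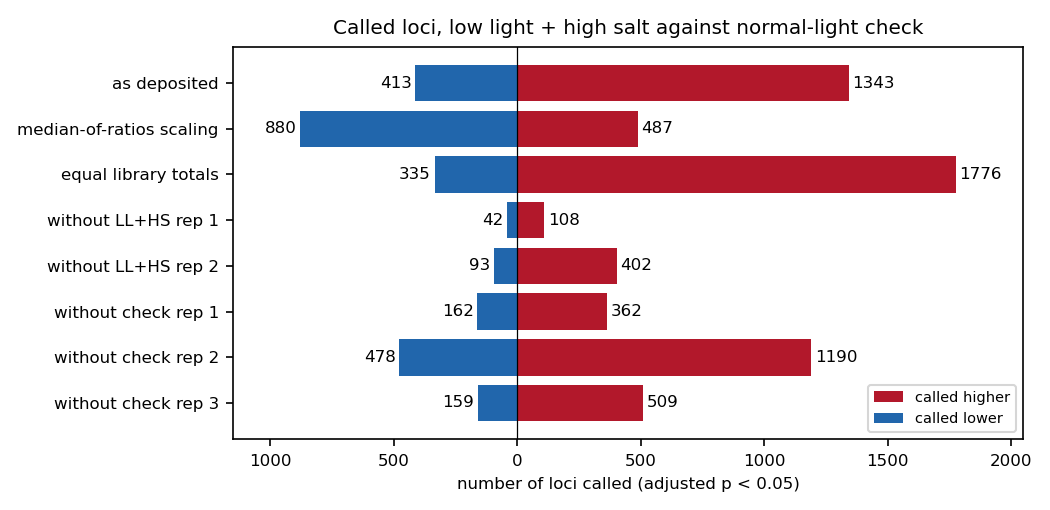
Number of loci called higher (right) and lower (left) under low light with high salt (LL+HS) against the normal-light check, for 8 settings of the fit. The bars for median-of-ratios scaling (487 higher, 880 lower) turn the balance seen as deposited (1343 higher, 413 lower), and leaving out replicate 1 of the combined stress leaves 108 higher and 42 lower.

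Fungal loci moved with the groups as well. Loci with a fungal best hit held 0.417% and 0.286% of the abundance under the combined stress, against 0.0767%, 0.0716% and 0.0709% in the check. Of 974 fungal loci 200 passed the filter. In a fit that kept them, 107 were higher and 1 was lower, or 54.0% called, against 8.62% of all loci in the main fit. That fit with fungal loci called 1504 loci higher and 423 lower in all. How many fungal loci passed the filter only through the combined stress was not counted. Such loci had to differ, so these counts are a description. Whether fungal material on the plants had a part in any plant result below was not tested.

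The 12 highest log2 changes among described loci called both as deposited and after scaling belonged to proteins of varied roles. Dormancy-associated protein homolog 1, of a small family of unclear function that is named for its transcripts in dormant buds, was the best hit of 2 of them. The first (g96690) had 61.0 and 26.7 under low light with high salt, against 0.0321, 0 and 0.00641 in the check. The second (g92107) had 24.4 and 11.1, against 0.168, 0.144 and 0.0799 in the check. Both were near 0 in every check library, so the size of their fitted changes depends on the pseudocount (limma adjusted p = 0.019 and 0.015). A dehydrin named cold shock protein CS66 (g81858), of the family that coats membranes and proteins as cells lose water, had 126 and 20.7, against 0.635, 3.26 and 1.60 in the check. Its groups did not overlap, but the libraries with both stresses lay far apart (log2 change 4.32, SE 1.07, limma adjusted p = 0.03). A UPF0098 protein (g144437) had 21.0 and 21.99, against 0.417, 1.45 and 1.68 in the check (log2 change 3.42, SE 0.75, limma adjusted p = 0.019).

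Other loci of this set serve secretion, defence and the cell wall. Pectinesterase inhibitor 8 (g98357), whose relatives restrain the enzymes that demethylate pectin, had 11.2 and 23.7 against 0.122, 0.0713 and 0.318 in the check (limma adjusted p = 0.008). Syntaxin-132 (g20298), a membrane fusion protein, had 41.1 and 29.0 under both stresses, against 0.897, 5.51 and 0.383 in the check (log2 change 3.79, SE 0.58, limma adjusted p = 0.0039). A ricin B-like lectin (g93163), a sugar-binding protein, stood at 27.0 and 28.5 against 0, 3.11 and 0. The locus g9956, named for a coatomer subunit at 38.8% identity, stood at 33.5 and 23.7 and was listed at 0 in all 3 check libraries (limma adjusted p = 0.031). Transcripts of this locus carried 3 different names, so its product is uncertain. The remaining loci were named for a receptor-like kinase (g13281), a thiosulfate sulfurtransferase (g20558), a disease resistance protein RGA5 (g1838) and the ABA enzyme NCED3 (g79474), which is described with its pathway. In all 12 the lowest library with both stresses lay above the highest check library, as the choice of these loci required. None of the 12 calls was kept without replicate 1 of the combined stress, and 4 were kept without replicate 2, 3 without check replicate 1, 11 without check replicate 2 and 6 without check replicate 3.

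The 12 loci with the lowest log2 changes held several chloroplast proteins. Fatty acid desaturase 4 (g14378), which in Arabidopsis places a trans double bond in the phosphatidylglycerol of thylakoid membranes, had 1.61 and 1.66 under low light with high salt, against 87.2, 104 and 74.6 in the check. The libraries with both stresses were nearly equal and far below every check library (log2 change -5.07, SE 0.54, limma adjusted p = 0.00065). Plastocyanin (g98084), the copper protein that carries electrons to photosystem I, had 16.4 and 161, against 2115, 1591 and 804 in the check (log2 change -4.72, SE 0.97, limma adjusted p = 0.015). A second plastocyanin locus (g80405) was not called, at 1025 and 749 against 2260, 420 and 3141 (limma adjusted p = 0.69). The sigma factor sigE (g27029), which directs the plastid RNA polymerase to its promoters, had 4.55 and 8.31 against 82.5, 81.5 and 126 in the check (log2 change -3.73, SE 0.51, limma adjusted p = 0.0028).

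Regulators and defence loci made up much of the rest of the low set. A MYB-related protein (g1767) had 4.56 and 5.29 against 77.4, 139 and 138 in the check (log2 change -4.28, SE 0.58, limma adjusted p = 0.0028). The kinase PIX13 (g17812) had 4.21 and 0.589 against 158, 243 and 60.9 in the check (limma adjusted p = 0.02). Jacalin-related lectin 3 (g22740), a mannose-binding type of lectin, had 2.36 and 3.35 under both stresses, against 101, 54.3 and 55.8 in the check (log2 change -4.16, SE 0.38, limma adjusted p = 0.00016). The groups did not overlap in any of the 12 loci of this low set, as the choice of these loci required. A disease resistance protein RGA1 locus (g216) and a wall-associated receptor kinase 2-like locus (g27682) fell by 3.91 and 3.84 on the log2 scale. The sugar transporter SWEET2b (g89645), of a family that lets sugars cross membranes down their gradient, had 0.609 and 0.653 against 4.03, 35.7 and 30.9 in the check (limma adjusted p = 0.026). Farnesyl pyrophosphate synthase (g21912), an enzyme of isoprenoid synthesis, had 8.10 and 6.601 against 70.8, 61.7 and 139 in the check. The last 2 of this set were a clock-type MYB factor (g19999), described with the clock, and an oxidoreductase named 2-alkenal reductase (g23026), whose adjusted p rounds to 0.05. Of these 12 calls 5 were kept without replicate 1 of the combined stress, 6 without replicate 2, 8 without check replicate 1, 10 without check replicate 2 and 8 without check replicate 3.

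**Figure D2:**
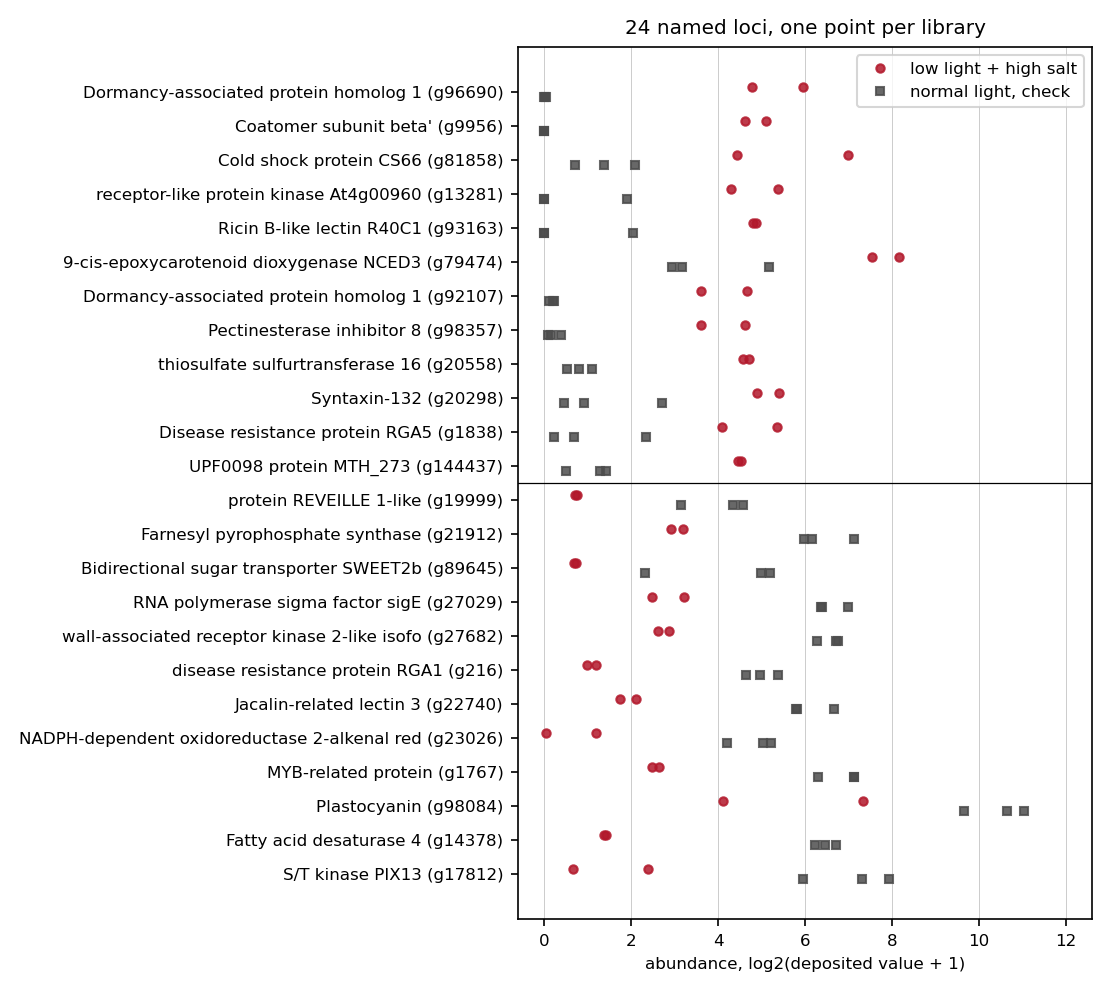
Abundance as log2(deposited value + 1) in each library for the 12 highest and 12 lowest described loci called both as deposited and after scaling, with low light and high salt as circles and the normal-light check as squares. In every line the circles and squares do not overlap, as the choice of these loci required. The circles of plastocyanin (16.4 and 161 in deposited units) and of the cold shock protein CS66 (126 and 20.7) lie far apart.

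In the lists of photosynthesis and photorespiration no locus rose. Of 30 Calvin cycle loci 6 fell and none rose, or 20% lower against 2.03% of all tested loci. After scaling 10 fell, against 4.35% of all loci, and the list median lay 0.96 below that of all tested loci. Ribose-5-phosphate isomerase 3 (g1913), of the regenerative phase of the cycle, had 204 and 237 under low light with high salt, against 556, 528 and 561 in the check. Its replicates were tight in both groups and the groups did not overlap (log2 change -1.31, SE 0.21, limma adjusted p = 0.005). Phosphoribulokinase (g24751), which makes the acceptor for CO2, had 847 and 1139 against 2985, 3111 and 2768 in the check (limma adjusted p = 0.024). Sedoheptulose-1,7-bisphosphatase (g144004), Rubisco activase A (g136290), a second activase locus (g207945) and a small chain of Rubisco, the CO2-fixing enzyme (g196503), fell by 1.43 to 2.07 on the log2 scale. Rubisco activase B (g8562), with the highest mean of the list over the 14 libraries, stood at 1692 and 979 against 5250, 5856 and 7277 in the check and was called only after scaling (limma adjusted p = 0.087 as deposited and 0.049 scaled).

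In the electron carrier, photosystem and antenna lists 14.3%, 2.22% and 3.33% of loci were lower, against 2.03% of all tested loci. Of 28 loci for electron carriers and the chloroplast ATP synthase 4 fell and none rose (6 fell after scaling), and the list median lay 0.96 below that of all loci. Ferredoxin-NADP reductase (g18235), which passes photosynthetic electrons on to NADPH, had 121 and 196 against 475, 506 and 514 in the check (log2 change -1.69, SE 0.24, limma adjusted p = 0.0033). Besides plastocyanin, the other called members were 2 loci for 4-hydroxy-3-methylbut-2-en-1-yl diphosphate synthase (g24518 and g91118), a plastid enzyme of isoprenoid synthesis that takes electrons from ferredoxin. These 2 loci are not electron carriers, though they count among the 4. Of 45 photosystem subunits 1 fell, a PsbP-like protein (g84442), while 8 fell after scaling and the median lay 0.97 below all loci. Photosystem I subunit IV (g80301) overlapped between groups at 2635 and 5274 against 5810, 3688 and 4092 in the check (limma adjusted p = 0.69). Of 30 light-harvesting loci 1 fell, the one-helix protein OHP2 (g17321), which helps to assemble photosystems, at 109 and 162 against 303, 332 and 293 in the check (limma adjusted p = 0.024). A chlorophyll a-b binding protein (g2452) stood at 4685 and 10938 under both stresses, against 9630, 6835 and 5694 in the check, and was not called. The antenna list had 3 loci lower after scaling and a median 0.26 below all loci.

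Photorespiration, the salvage of the product made when Rubisco takes oxygen, had 3 of 42 loci lower and none higher (8 lower after scaling). The share lower was 7.14% as deposited, against 2.03% of all tested loci. The list median lay 0.79 below that of all loci. Phosphoglycolate phosphatase 1B (g84345), its entry enzyme, had 63.4 and 62.2 against 243, 280 and 185 in the check (log2 change -1.87, SE 0.33, limma adjusted p = 0.0072). The other called loci were 2 mitochondrial serine hydroxymethyltransferases (g129316 and g85729), with log2 changes of -1.32 and -1.47. Glycine dehydrogenase (g1444), with the highest mean of the list, stood at 1090 and 804 against 2562, 3164 and 3084 in the check (limma adjusted p = 0.055, and 0.02 after scaling).

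Carotenoid and photoprotection loci had the lowest list median, 1.14 below all loci, with 7 of 30 lower and 2 higher (10 lower and none higher after scaling). As deposited 23.3% were lower and 6.67% higher, against 2.03% and 6.59% of all tested loci. Phytoene synthase 2 (g26608), the first committed enzyme of carotenoid synthesis, had 35.8 and 41.0 under low light with high salt, against 252, 320 and 329 in the check. The groups lay far apart and each was tight (log2 change -2.93, SE 0.37, limma adjusted p = 0.0019). Violaxanthin de-epoxidase (g20395), which turns violaxanthin into the energy-dissipating zeaxanthin, had 65.4 and 56.5 against 141, 125 and 129 in the check (limma adjusted p = 0.037). The other 5 lower loci (g17902, g27125, g27026, g25168 and g19716) were named for prolycopene isomerase at 30.5% to 33.3% identity, have similar levels and may share reads. Both higher loci, g1357 and g84230, were named for a zeaxanthin cleavage dioxygenase at low identity. The first had 581 and 635 against 65.9, 179 and 47.5 in the check (limma adjusted p = 0.027, and 0.064 after scaling).

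Chlorophyll synthesis had 1 of 23 loci higher and 1 lower (0 and 1 after scaling). Each share was 4.35%, where 6.59% of all tested loci were higher and 2.03% lower. Glutamate-1-semialdehyde aminomutase (g20789), an early enzyme of tetrapyrrole synthesis, had 507 and 501 under both stresses, against 181, 203 and 223 in the check (log2 change 1.32, limma adjusted p = 0.021, and 0.17 after scaling). The lower locus (g20905) was matched through its name, a protochlorophyllide-dependent translocon component, and belongs to protein import. Of 19 chlorophyll breakdown and senescence loci 2 rose (10.5%) and 1 fell (5.26%). The risen loci were a protease named SAG39 (g82075), at 7.82 and 4.79 against 0.380, 0.614 and 0.538 in the check, and a chlorophyllase-2 (g92715), at 3.46 and 1.39 against 0, 0.0876 and 0.0364, which passed the filter through the combined stress. After scaling 1 was higher and 1 lower. Senescence-associated protein OSA15 (g1786) had 103 and 150 against 338, 288 and 338 in the check (log2 change -1.36, limma adjusted p = 0.0063). Of the 29 calls in these photosynthesis and pigment lists, 2 were kept without replicate 1 of the combined stress (phytoene synthase 2 and the translocon component), 7 without replicate 2, 7 without check replicate 1, 20 without check replicate 2 and 7 without check replicate 3.

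**Figure D3:**
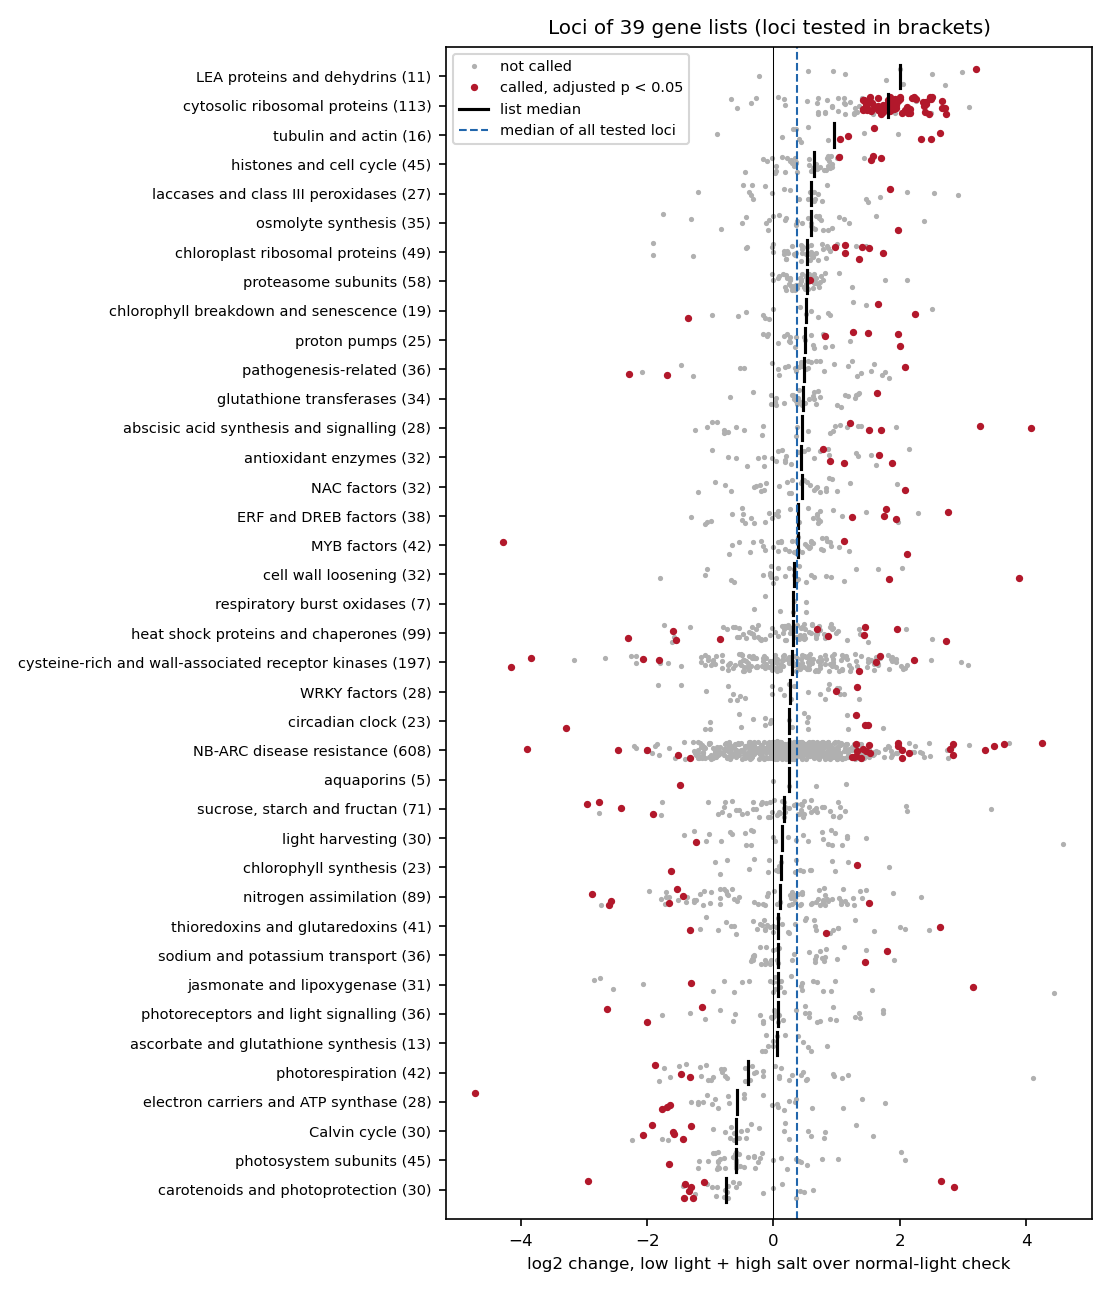
Log2 change under low light with high salt over the normal-light check for the tested loci of 39 gene lists, ordered by list median, with called loci in red and the median of all tested loci (0.38) as a dashed line. The lists of LEA proteins (median 2.00) and cytosolic ribosomal proteins (1.82) lie at the top, and those of photosystem subunits (-0.59) and carotenoids (-0.75) at the bottom.

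Redox enzymes, the subject named in the series title, gave 9 calls, 3 of which held after scaling. Of 32 antioxidant enzymes 5 rose and none fell as deposited, or 15.6% higher against 6.59% of all tested loci, while none was called after scaling and the median lay 0.06 above all loci. A superoxide dismutase (g20282), which turns superoxide into hydrogen peroxide, had 72.8 and 60.6 under low light with high salt, against 17.6, 20.9 and 14.4 in the check (log2 change 1.87, SE 0.38, limma adjusted p = 0.015, and 0.056 after scaling). A second dismutase (g25538) had 202 and 167 against 54.4, 63.5 and 53.04 in the check (limma adjusted p = 0.022, and 0.11 after scaling). The other 3 were glutathione peroxidase loci (g87243, g96134 and g87242), which reduce lipid and hydrogen peroxides, with log2 changes of 0.78 to 1.11. The chloroplast 2-Cys peroxiredoxin BAS1 (g79784), with the highest mean of the list, was not called at 195 and 226 against 198, 174 and 177 in the check (limma adjusted p = 0.66).

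Small redox proteins gave calls at shares near or below those of all tested loci as deposited. Of 41 thioredoxins and glutaredoxins 2 rose and 1 fell (1 and 4 after scaling), or 4.88% and 2.44% as deposited, against 6.59% and 2.03% of all tested loci. Glutaredoxin-C14 (g147728) had 10.3 and 7.76 against 0.704, 1.37 and 0 in the check (log2 change 2.64, SE 0.53, limma adjusted p = 0.013, and 0.028 after scaling). The chloroplast thioredoxin M3 (g23755) had 18.4 and 18.2 against 36.7, 55.6 and 51.1 in the check (log2 change -1.32, limma adjusted p = 0.021). Thioredoxin-like 3-3 (g17054) rose as deposited (limma adjusted p = 0.046, and 0.37 after scaling). Of 34 glutathione transferases 1 rose (2.94%), a scarce locus (g137077) at 5.77 and 3.49 against 0.510, 0.725 and 1.14 in the check (limma adjusted p = 0.018). No locus was called among 13 for ascorbate and glutathione synthesis or among 7 respiratory burst oxidases, which make superoxide at the plasma membrane. Respiratory burst oxidase homolog B (g13688) stood at 27.9 and 25.4 against 16.1, 33.1 and 17.4 in the check. Of the 9 redox calls none was kept without replicate 1 of the combined stress, and 1 was kept without replicate 2, 3 without check replicate 1, 6 without check replicate 2 and 2 without check replicate 3.

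ABA loci gave 5 of 28 higher and none lower (17.9% higher, against 6.59% of all tested loci), with a median 0.07 above all loci. After scaling 3 were higher and 2 lower, where 2.41% and 4.35% of all loci were. Cleavage of 9-cis-epoxycarotenoids by NCED enzymes is the committed step of ABA synthesis. The locus named NCED3 (g79474) had 284 and 185 under low light with high salt, against 7.95, 35.2 and 6.72 in the check. The lowest of the first group was over the highest of the second, as its choice among the highest loci required (log2 change 4.08, SE 0.70, limma adjusted p = 0.0062). Its identity to the named protein was only 30.4%, and that of a second called locus, named NCED2 (g20126), 29.4%. That locus had 884 and 981 against 74.7, 250 and 46.5 in the check (limma adjusted p = 0.044, and 0.092 after scaling). The locus named NCED1 (g1770) at 87.1% identity was not called, at 691 and 467 against 651, 983 and 769 in the check (limma adjusted p = 0.58). At such low identity the substrate of the products of the first 2 loci is uncertain.

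On the signalling side, an ABI5-like factor (g8687), of the bZIP family that binds ABA-responsive promoters, had 36.5 and 44.3 against 15.9, 21.2 and 13.7 in the check (log2 change 1.22, limma adjusted p = 0.013, and 0.074 after scaling). Protein phosphatase 2C 51 was the name of 2 scarce loci, of a family in which several members restrain ABA signalling. The first (g27188) had 2.61 and 2.25 against 0, 0.165 and 0 in the check, and the second (g137880) 2.76 and 1.39 against 0.0386, 0.0959 and 0. Both held after scaling (limma adjusted p = 0.017 and 0.015 scaled).

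Late embryogenesis abundant (LEA) proteins and dehydrins had the highest list median, 1.62 above all loci. Yet of 11 loci 1 was called higher (9.09%, against 6.59% of all tested loci). This group 3 LEA protein (g17554) had 2208 and 684 under both stresses, against 72.5, 144 and 219 in the check (log2 change 3.21, SE 0.54, limma adjusted p = 0.006, and 0.0085 after scaling). Of the 11 loci 10 lay above the median change of all loci. The dehydrin named cold shock protein CS66 (g81858), called higher above, was not matched to this list by its name. Osmolyte synthesis had 1 of 35 loci higher (2.86%). This trehalose-phosphate synthase (g15925), which makes the precursor of the sugar trehalose, had 60.5 and 51.4 against 11.0, 21.9 and 9.77 in the check (limma adjusted p = 0.03, and 0.07 after scaling). The raffinose-type galactosyltransferase g20667, with the highest mean of the list, stood at 386 and 394 against 203, 259 and 249 (limma adjusted p = 0.19).

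Proton pumps energise the membranes across which sodium is moved, and 5 of 25 loci rose and none fell (2 higher after scaling). The vacuolar pyrophosphatase (g15564), which acidifies the vacuole, had 145 and 159 against 80.1, 55.6 and 55.5 in the check (log2 change 1.26, SE 0.27, limma adjusted p = 0.018, and 0.19 after scaling). A set of 3 loci named plasma membrane ATPase 1 (g17636, g17308 and g22702) lay between 1.89 and 6.41 under both stresses, against 0.0543 to 0.658 in the check, and these loci have 92.0% to 92.4% identity to the same protein. The plasma membrane ATPase with the highest mean (g9549) stood at 332 and 293 against 197, 280 and 143 and was not called (limma adjusted p = 0.27). Subunit G1 of the vacuolar proton ATPase (g26073) rose by 0.81 log2 units as deposited (limma adjusted p = 0.041, and 0.48 after scaling).

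Sodium and potassium transport had 2 of 36 loci higher and none after scaling. At 5.56% the share higher was below the 6.59% of all tested loci. Both were sodium/hydrogen exchangers, which swap sodium for protons. Exchanger 7 (g87056), the name of the plasma membrane exporter known as SOS1 in Arabidopsis, had 5.80 and 3.49 against 0.658, 1.51 and 0.993 in the check (log2 change 1.45, limma adjusted p = 0.032, and 0.078 after scaling). The other (g9263) had 63.3 and 22.03 against 5.73, 13.04 and 13.4 in the check (limma adjusted p = 0.034, and 0.078 after scaling). Aquaporin PIP2-1 (g23268), a water channel of the plasma membrane, was the 1 called of 5 aquaporins, at 39.6 and 42.7 under both stresses, against 107, 134 and 112 in the check. Both groups were tight and did not overlap (log2 change -1.48, SE 0.25, limma adjusted p = 0.0063, and 0.0017 after scaling). Of the 15 calls in the ABA, LEA, osmolyte, ion and water lists, none was kept without replicate 1 of the combined stress, and 5 were kept without replicate 2, 5 without check replicate 1, 13 without check replicate 2 and 5 without check replicate 3.

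Light signalling had 3 of 36 loci lower (8.33%, against 2.03% of all tested loci) and none higher (5 lower after scaling). A locus named for the ultraviolet-B receptor UVR8 (g25701), at 32.1% identity, had 2.93 and 2.00 against 22.4, 17.6 and 21.1 in the check (log2 change -2.63, SE 0.42, limma adjusted p = 0.0045). SPA1-RELATED 3 (g26858) and COP1 (g9681), partners in the ubiquitin ligase that removes light-promoting factors in darkness, had 15.8 and 12.4 against 47.6, 58.0 and 76.2, and 1.84 and 1.72 against 5.79, 4.90 and 4.58 in the check. Phototropin-1A (g2054), a blue-light receptor, stood at 88.8 and 81.3 against 25.4, 40.6 and 32.6 in the check, with no overlap, and was not called (limma adjusted p = 0.12).

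The circadian clock list had 3 of 23 loci higher and 1 lower (2 and 2 after scaling). All 3 higher loci were named GIGANTEA, an evening-phased clock and flowering regulator. The one with the smallest p (g98846) had 56.2 and 43.2 against 18.5, 15.7 and 16.6 in the check (log2 change 1.49, SE 0.23, limma adjusted p = 0.0038, and 0.014 after scaling). The others (g85206 and g82379) had log2 changes of 1.45 and 1.3, the last with an adjusted p of 0.15 after scaling by limma. A REVEILLE 1-like factor (g19999), of the morning-phased MYB family that acts in the clock of Arabidopsis, had 0.690 and 0.632 against 7.85, 19.2 and 22.9 in the check (log2 change -3.29, SE 0.72, limma adjusted p = 0.019). The hour of sampling is not given in the labels. Of the 7 calls in the light and clock lists, 1 was kept without replicate 1 of the combined stress (the UVR8-named locus), 3 without replicate 2, 4 without check replicate 1, 5 without check replicate 2 and 4 without check replicate 3.

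Carbon storage had 4 of 71 sucrose, starch and fructan loci lower (5.63%, against 2.03% of all tested loci) and none higher (6 lower after scaling). An alpha-amylase (g23732), which breaks starch, was listed at 0 in both libraries with both stresses, against 11.9, 3.07 and 7.94 in the check, through which alone it passed the filter. The chloroplast beta-amylase 3 (g24100), another starch-degrading enzyme, had 21.2 and 12.8 against 59.4, 135 and 207 in the check (log2 change -2.77, limma adjusted p = 0.019). A second beta-amylase (g19282) and sucrose-phosphate synthase 5 (g81955), which makes sucrose, had log2 changes of -2.42 and -1.91. Neutral invertase 1 (g8205), which splits sucrose, stood at 134 and 136 against 143, 158 and 157 and was not called (limma adjusted p = 0.71).

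Nitrogen assimilation had 6 of 89 loci lower and 1 higher (10 lower and none higher after scaling). As deposited these are 6.74% and 1.12%, against 2.03% and 6.59% of all tested loci. Ammonium transporter 1 member 1 (g15617) had 19.8 and 10.6 against 66.8, 115 and 107 in the check (log2 change -2.61, SE 0.47, limma adjusted p = 0.0084). Ferredoxin-dependent glutamate synthase, which returns ammonium to amino acids in the chloroplast, was the name of 3 called loci (g14019, g92307 and g15195). The first had 269 and 205 against 661, 901 and 677 in the check (log2 change -1.65, SE 0.39, limma adjusted p = 0.025), and the changes of the others were -1.53 and -1.43. The other 2 lower loci were transporters of the NRT1/PTR family (g13434 and g8007). Asparagine synthetase (g27272), which stores nitrogen as asparagine, had 12.7 and 11.7 against 2.69, 4.98 and 3.42 in the check (log2 change 1.52, limma adjusted p = 0.028, and 0.077 after scaling). Of the 11 carbon and nitrogen calls, 2 were kept without replicate 1 of the combined stress, 1 without replicate 2, 5 without check replicate 1, 8 without check replicate 2 and 4 without check replicate 3.

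Cytosolic ribosomal proteins had 75 of 113 loci higher and none lower, or 66.4% higher against the background of 6.59%. After scaling 44 were higher and 1 lower. The list median lay 1.44 above all loci, and 106 of the 113 loci lay above the median change of all loci. 60S ribosomal protein L13-1 (g27922) had 433 and 439 under low light with high salt, against 61.9, 91.5 and 76.7 in the check. Replicates were tight and the groups lay far apart (log2 change 2.51, SE 0.30, limma adjusted p = 0.0013, and 0.0031 after scaling). 40S ribosomal protein S4 (g19587), with the highest mean of the list, had 780 and 703 against 141, 195 and 143 in the check (log2 change 2.22, SE 0.32, limma adjusted p = 0.0031). Of the 75 calls 8 were kept without replicate 1 of the combined stress, 36 without replicate 2, 41 without check replicate 1, 66 without check replicate 2 and 53 without check replicate 3.

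Organelle-type ribosomal proteins (50S and 30S) moved less, with 7 of 49 loci higher and none lower (1 and 1 after scaling) and a median 0.15 above all loci. The share higher was 14.3% as deposited, against 6.59% of all tested loci. 50S ribosomal protein L19 (g15620) had 22.3 and 19.1 against 5.55, 7.404 and 3.97 in the check (log2 change 1.74, SE 0.26, limma adjusted p = 0.0035, and 0.01 after scaling). Of 99 heat shock proteins and chaperones 6 rose and 4 fell (1 and 7 after scaling), shares of 6.06% and 4.04% against 6.59% and 2.03% of all tested loci. The lower loci were all of the DnaJ type, which hand clients to Hsp70. The DnaJ locus with the smallest p (g26344) had 29.99 and 24.03 against 97.6, 70.2 and 82.4 in the check (log2 change -1.59, SE 0.24, limma adjusted p = 0.0035), and the chloroplast dnaJ 20 (g96403) had 52.8 and 29.5 against 176, 245 and 181. Among the higher loci were a heat shock cognate 70 (g20738), at 6.72 and 4.16 against 0.422, 0.765 and 0.720 in the check, and a chloroplast chaperonin 60 beta (g19029). Of 58 proteasome subunits 1 rose (1.72%), a non-ATPase regulatory subunit (g27780) with a log2 change of 0.58 (limma adjusted p = 0.043, and 0.83 after scaling). Taking these 3 lists and the cytosolic ribosomal proteins together, 11 of 93 calls were kept without replicate 1 of the combined stress, 40 without replicate 2, 46 without check replicate 1, 79 without check replicate 2 and 58 without check replicate 3.

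Microtubules and actin filaments shape and move the contents of growing cells. Of 16 tubulins and actins 6 rose and none fell (37.5% higher, against 6.59% of all tested loci). After scaling 4 were higher and 1 lower. The median as deposited lay 0.58 above all loci. Tubulin beta-1 (g25775), a subunit of microtubules, had 26.0 and 18.0 against 3.39, 2.54 and 2.07 in the check (log2 change 2.64, SE 0.36, limma adjusted p = 0.0028, and 0.005 after scaling). Actin-1 (g14237) stood on the other side, at 539 and 666 against 892, 1249 and 1264 in the check (limma adjusted p = 0.061), and was called lower after scaling (adjusted p = 0.013). Of 45 histone and cell cycle loci 4 rose as deposited (8.89%, against 6.59% of all tested loci) and none after scaling. They were a cyclin-dependent kinase C-1 (g21815), of a family tied to transcription, cyclin-D2-2 (g27282), a histone H1 (g85737) and the replication factor MCM2 (g21651), with log2 changes of 1.04 to 1.71. Of the 10 calls in these 2 lists, 1 was kept without replicate 1 of the combined stress, 4 each without replicate 2, check replicate 1 and check replicate 3, and 10 without check replicate 2.

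Cell wall lists gave 3 calls. Of 32 wall-loosening loci 2 rose (6.25%), and of 27 laccases and class III peroxidases 1 rose (3.7%), against 6.59% of all tested loci. Besides pectinesterase inhibitor 8, expansin-B7 (g24200), which loosens walls, had 6.07 and 6.05 against 0.793, 1.35 and 0.871 in the check (limma adjusted p = 0.02, and 0.052 after scaling). Peroxidase 1 (g26215) was the 1 called of 27 laccases and class III peroxidases (limma adjusted p = 0.041, and 0.14 after scaling). Without replicate 1 or without replicate 2 of the combined stress none of the 3 was kept, and 1 was kept without check replicate 1 and without check replicate 3.

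Defence receptors showed shares near or below the background. Of 608 NB-ARC disease resistance loci, the intracellular receptors of plant immunity, 22 rose (3.62%) and 5 fell (0.822%), against 6.59% and 2.03% of all tested loci (16 and 6 after scaling). Of these 27 calls 10 passed the filter only through the combined stress and 4 only through the check. An At1g12290-like locus (g19298) with the highest mean had 228 and 178 against 48.6, 42.9 and 62.5 in the check (log2 change 1.97, SE 0.39, limma adjusted p = 0.012). Of 197 cysteine-rich and wall-associated receptor kinases, which sense signals at the cell surface, 4 rose and 4 fell, or 2.03% each (1 and 4 after scaling). Of these 8 calls 2 passed the filter only through the check. CRK10 (g27266) was listed at 0 in both libraries with both stresses, against 21.4, 13.5 and 16.5 in the check; it passed the filter only through the check libraries. Of 36 pathogenesis-related loci 1 rose (2.78%) and 2 fell (5.56%), all glucan endo-1,3-beta-glucosidases, which cut a polymer of plant and fungal walls. The higher one (g18083) had 39.6 and 41.8 against 7.56, 12.3 and 7.29 in the check, and the lower ones (g8507 and g19734) had log2 changes of -1.69 and -2.28. Of these 38 defence calls 6 were kept without replicate 1 of the combined stress, 14 without replicate 2, 14 without check replicate 1, 32 without check replicate 2 and 16 without check replicate 3.

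Ethylene response and DREB factors, a family of DNA-binding proteins in stress and development, had 5 of 38 loci higher and none lower, the same counts after scaling. The share higher was 13.2%, against 6.59% of all tested loci as deposited. Of these 5 calls all were kept without replicate 2 of the combined stress and without each check library, and 4 without replicate 1 of the combined stress. The locus named BBM2 (g23672) had 41.3 and 29.98 under both stresses, against 7.17, 8.41 and 9.83 in the check (log2 change 1.94, SE 0.23, limma adjusted p = 0.0013). CRF3 (g24494), of the cytokinin-response branch, had 18.3 and 17.8 against 4.02, 5.67 and 3.95 in the check (limma adjusted p = 0.0015). A RAP2-type factor (g27902) had 14.3 and 9.23 against 0.582, 1.63 and 0.483, and ERF117 (g24417) had 173 and 230 against 48.4, 73.5 and 56.0 in the check. The last, a second AP2-like locus (g15622), lost its call without replicate 1 of the combined stress.

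Other regulator families gave isolated calls. As deposited 4.76% of MYB, 3.12% of NAC and 7.14% of WRKY loci were higher, against 6.59% of all tested loci. Lower were 2.38% of MYB loci, against 2.03% of all tested loci. Jasmonate and lipoxygenase loci had 3.23% higher and 3.23% lower. Of 42 MYB loci 2 rose and 1 fell (1 and 3 after scaling), with MYBAS1 (g7996) at 112 and 94.4 against 21.2, 34.3 and 16.6 in the check (log2 change 2.12, limma adjusted p = 0.0062). Of 32 NAC factors 1 rose, NAC 21/22 (g14902), at 5.86 and 6.33 against 0.169, 1.84 and 0.392 in the check (limma adjusted p = 0.02). Of 28 WRKY factors 2 rose as deposited and none after scaling (g8766 and g19855, limma adjusted p = 0.042 and 0.045). The NAC call was lost without either library of the combined stress and without check replicate 1 or 3. Both WRKY calls were lost without either library of the combined stress and without check replicate 1 or 2. Of the 3 MYB calls 1 was kept without replicate 1 of the combined stress and 2 without replicate 2. Jasmonate and lipoxygenase loci had 1 of 31 higher and 1 lower (0 and 1 after scaling), and neither call was kept without replicate 1 of the combined stress. The higher one, GH3.5 (g8844), named for the enzyme that joins jasmonate to amino acids, had 8.27 and 8.28 against 0.0539, 0.0423 and 0.0103 in the check (limma adjusted p = 0.041, and 0.056 after scaling). Linoleate 9S-lipoxygenase 1 (g22292) had 20.2 and 31.2 against 66.0, 51.7 and 75.9 in the check (log2 change -1.31, limma adjusted p = 0.0073).

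The single stresses were set against the same 3 check libraries, so their values stand here side by side with those of the combined stress and are not independent of them. Against the check 817 loci (4.01%) were called for high salt at normal light, 617 higher (3.03%) and 200 lower (0.982%). After scaling 159 were higher (0.786%) and 425 lower (2.1%). For low light alone 3082 (15.1%) were called, 2200 higher (10.8%) and 882 lower (4.33%). After scaling 739 were higher (3.65%) and 1470 lower (7.26%). Cytosolic ribosomal proteins had 75 higher loci under both stresses, 49 with high salt alone and 81 with low light alone. Calvin cycle loci had 6 lower under both stresses, 1 with high salt alone and 8 with low light alone. Carotenoid loci had 7 lower under both stresses, 3 with high salt and 10 with low light. List medians relative to all tested loci are given in the same order. They were 1.44, 0.94 and 1.37 for ribosomal proteins, -0.96, -1.06 and -1.02 for the Calvin cycle and -1.14, -0.92 and -1.07 for carotenoids. The Calvin cycle counts thus differ where the medians are alike. For LEA proteins the median lay 1.62 above all loci under both stresses, 1.88 above with high salt alone and 0.01 below with low light alone.

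Against low light alone, the combined stress gave 115 called loci (0.565%), 111 higher (0.545%) and 4 lower (0.0196%), and 1613 at an unadjusted p under 0.05. Plant loci made up 49 of the higher and 3 of the lower calls (0.306% and 0.0187% of plant loci). Without replicate 1 of the combined stress 52 loci were called, and without replicate 2, 72. A fit of only the groups compared called 0 by limma (1267 at an unadjusted p under 0.05), and a filter at 5 left 15 calls. Of the 115 loci 80 passed the filter only through the combined stress. Of the 49 loci 35 were under 1 in all 3 libraries of the low-light check and 27 in all 12 libraries outside the combined stress. A locus under 1 in all 12 passed the filter only through the group where it is high, so it had to differ, and these counts are a description. Loci named for RGA5 (g1838), NCED3 (g79474, at 30.4% identity) and an At1g15890-like resistance protein (g1534) were called here and in the same direction against the check. They were the described loci with a mean of at least 5 for which this held. The NCED3-named locus had 284 and 185 under both stresses, against 7.74, 22.9 and 7.26 under low light alone (log2 change 4.26, SE 0.70, limma adjusted p = 0.017, and 0.2 in the fit of only these groups). It had 78.9, 51.8 and 126 with high salt at normal light, and the difference of the combined stress from these did not pass the test (limma adjusted p = 0.52). RGA5 had 40.2 and 16.1 under both stresses, against 0.0625, 0.165 and 0.279 under low light alone (limma adjusted p = 0.016, and 0.14 in the fit of only these groups). The At1g15890-like locus, whose transcripts carried 4 names, had 41.3 and 30.5 under both stresses, 11.9, 9.35 and 7.44 under low light alone, 7.74, 7.54 and 10.7 with high salt alone and 2.87, 6.69 and 3.79 in the check. It was called against each of these 3 groups (limma adjusted p = 0.034, 0.022 and 0.0013). The calls of NCED3, RGA5 and the At1g15890-like locus against low light alone held in 18, 20 and 11 of 24 alternative settings, and none held without replicate 1 or without replicate 2 of the combined stress.

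Against high salt at normal light, 119 loci were called (0.584%), 106 higher (0.52%) and 13 lower (0.0638%), with 1977 at an unadjusted p under 0.05. Without replicate 1 of the combined stress 37 loci were called, and without replicate 2, 71. A fit of only the groups compared left 4 higher and 0 lower (1914 at an unadjusted p under 0.05), so that each call named here was lost in it, and 81 of the 119 loci passed the filter only through the combined stress. Plant loci made up 50 of the higher and 11 of the lower calls (0.312% and 0.0687% of plant loci), and 28 of those 50 were under 1 in all 12 libraries outside the combined stress. Cytochrome P450 704C1 (g25345), of a family of fatty acid hydroxylases, had 12.1 and 9.87 under both stresses, against 1.90, 1.94 and 2.49 with high salt alone (limma adjusted p = 0.013). It had 12.9, 8.62 and 16.5 under low light alone, and these overlapped the libraries with both stresses. CCG-binding protein 1 (g1420) had 123 and 87.6, against 31.3, 20.8 and 28.9 with high salt alone (limma adjusted p = 0.047). Jacalin-related lectin 3 loci were lower in 2 cases. The first (g22740) had 2.36 and 3.35 under both stresses, against 20.6, 42.4 and 25.6 with high salt alone (limma adjusted p = 0.0035), and 1.29, 2.55 and 3.72 under low light alone. The second (g20956) had 3.42 and 6.23, against 20.2, 43.8 and 33.6 with high salt alone (limma adjusted p = 0.023). NADPH-cytochrome P450 reductase (g13601), which feeds electrons to P450 enzymes, and RETICULATA-RELATED 4 (g15005), a chloroplast protein of leaf development, were also lower than with high salt alone (limma adjusted p = 0.04 and 0.043). The call of the lectin g22740 held in 22 of 24 alternative settings, that of cytochrome P450 704C1 in 19 and those of g20956 and the At1g15890-like locus in 15 each. Those of CCG-binding protein 1, the P450 reductase and RETICULATA-RELATED 4 held in 5, 5 and 6.

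**Figure D4:**
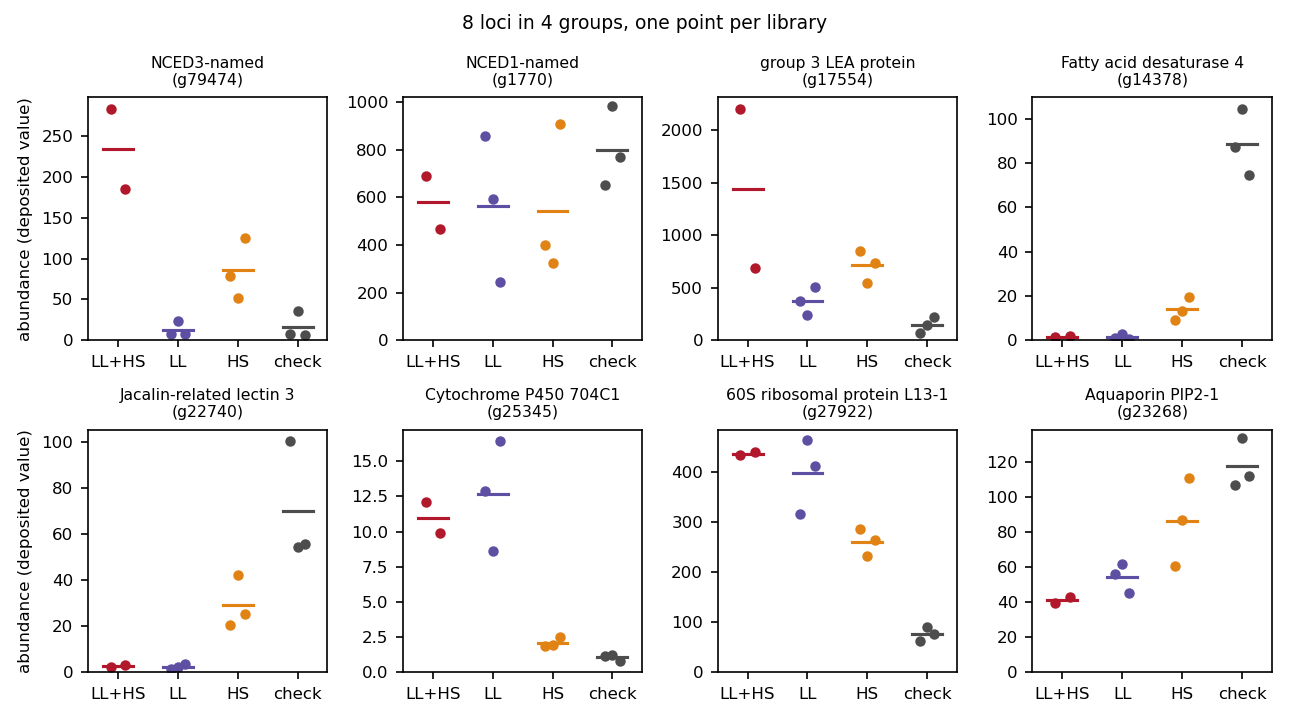
Deposited abundance of 8 loci in each library of 4 groups, low light with high salt (LL+HS), low light alone (LL), high salt at normal light (HS) and the normal-light check, with bars at the group means. The NCED3-named locus is high in both salt groups (185 to 284 with both stresses, 51.8 to 126 with high salt alone), while cytochrome P450 704C1 is high in both low-light groups (9.87 to 12.1 with both stresses, 8.62 to 16.5 with low light alone).

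The interaction of light and salt asks whether the combined change differs from the sum of the single ones on the log scale. It was called for 42 loci (0.206%), 35 higher (0.172%) and 7 lower (0.0344%), with 2952 at an unadjusted p under 0.05. After scaling 49 were higher (0.242%) and 3 lower (0.0148%). Plant loci made up 21 of the 42 (0.131% of plant loci). Leaving out check replicate 1, 2 or 3 gave 23, 158 and 24 calls, and the count was 125 without high salt replicate 3 and 82 without low-light check replicate 1. Of the 5 described loci with the smallest p, 4 were at or near 0 outside the combined stress. A second RGA5 locus (g1435) had 13.7 and 7.74 and was listed at 0 in the other 9 libraries of the 4 groups. A SINA-like 10 ubiquitin ligase (g19242) had 8.86 and 7.54, a receptor-like kinase SD1-7 (g1535) 16.3 and 8.13, and a bHLH19 factor (g26697) 6.70 and 4.53, each against at most 0.0697 in any other library of these groups. These 4 passed the filter only through the combined stress and so had to differ, as 26 of the 42 called loci did. The fifth, CRK10, was at 0 to 0.0178 in all 3 stress groups, and only the check libraries held it at 13.5 to 21.4, so it passed the filter only through them. Within the gene lists, the interaction was also called for 2 tubulin loci that rose under the combined stress, alpha (g81447) and beta-5 (g13742). Their interactions were -2.10 and -3.10 log2 units (limma adjusted p = 0.041 and 0.021), which puts the combined change below the sum of the single ones. Both calls were lost with a replicate block, a filter at 5, a pseudocount of 0.1 or a minimum change of 0.5 log2 units. They were also lost without replicate 2 of the combined stress, check replicate 3, high salt replicate 1 or low-light check replicate 3, and held in 9 (alpha) and 16 (beta-5) of 24 alternative settings. The interaction of the NCED3-named locus did not pass the test (limma adjusted p = 0.42).

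Markers of other tissues were summed as a check on the leaf label. Leaf markers had 21869 and 43714 units under both stresses, against 37919 to 54831 in the check, so leaf transcripts were abundant in every library. Of 35 tested leaf markers 4 fell (11.4%, against 2.03% of all tested loci) and none rose. Sums of phloem markers were 820 to 848 under both stresses, against 487 to 661 in the check. Those of dividing-cell markers were 195 to 218 against 144 to 172, and neither pair overlapped. With high salt alone the phloem sums were 695 to 908, and under low light alone 653 to 1145. The dividing-cell sums were 182 to 201 and 113 to 304 in that order. The sums of both single stresses overlap those of the combined stress. These sums are of deposited values, in which the median change of all tested loci was 0.38 log2 units. The median of the phloem list lay 0.21 above that and the median of the dividing-cell list 0.12. SWEET13 (g96132) alone held 565 and 547 of the phloem sums under both stresses, against 366, 467 and 298 in the check. The SUT1 sucrose transporter loci overlapped between groups, the most abundant (g17064) with 34.06 and 28.73 against 49.17, 23.29 and 31.96. In the dividing-cell sums histone H3.3 (g159064) held 76.01 and 60.17, against 20.72, 58.19 and 38.56 in the check. Cyclin-B1-2 (g88225) overlapped at 81.95 and 76.54 against 82.78, 60.55 and 75.23. Root markers had sums of 267 to 344 against 174 to 325, epidermis and cuticle markers 656 to 1006 against 721 to 1105, and senescence markers 15.01 to 21.5 against 3.96 to 20.4. Outside the leaf list, the root marker deoxymugineic acid synthase (g15343), 1 of 6 tested, and the phloem marker SWEET2b, 1 of 24, fell. Of 6 senescence markers 2 rose, and none of 12 dividing-cell or 27 epidermis markers was called. The root marker with the highest level, 2'-deoxymugineic-acid 2'-dioxygenase (g21666), stood at 272 and 217 under both stresses, against 77.5, 184 and 97.3 in the check, without overlap and without a call. Nicotianamine synthase-like 5 (g17372) stood at 20.7 and 18.4 against 10.95, 14.9 and 11.4, also without overlap. A second dioxygenase locus (g92631), a nitrate transporter activator (g99549) and phosphate transporter 1-8 (g26744) were at or near 0 under both stresses. The part of these tissues in the results was not tested.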

How the data were processed

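Leaf RNA was sequenced in 14 libraries of 5 groups. Per the submitters' processing notes, Bowtie 0.12.2, HISAT2 2.0 and StringTie 1.3.0 were used with the genome build mm8, which is a mouse build, and its role for a grass is not stated. The authors deposited a single file of abundance values (a signal per transcript, unit not named), summing to 470162 to 581690 per library over the rows used, so read depth is unknown and no counting interval is given. It ends at line 65536, which is a spreadsheet row limit, so it may hold only a part of the authors' full table. Counts of list members, highest means and shares of summed abundance cover the loci in this file alone. In it 4 lines were broken, and 3 loci (17 transcripts) at the edges were left out. The deposited signal values were summed to 29560 loci, and 974 with a fungal best hit were left out before the fit. Limma 3.58.1 (R 4.3.3 and data.table version 1.17.8) was run on log2(value + 1) of the loci that reached 1 in 2 or more libraries. A single model held the 5 group means of the 14 libraries, with an intensity trend, robust moderation and Benjamini-Hochberg adjustment. All contrasts came from this fit. Summaries and plots used Python 3.11.15, pandas 2.3.3, numpy 2.4.6 and matplotlib 3.10.9.

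The members, the 45 lists (matched by annotation text) and the tests were chosen with earlier results of these data known. The loci named were the 12 highest and 12 lowest described loci called on both scales in the same direction, a mean of 5 or more and groups that did not overlap. For each list they were the called member with the smallest p and the member with the highest mean. For the other 2 contrasts of the combined stress they were up to 4 loci per direction also called against the check, and for the interaction the 5 described loci with the smallest p. Further called list members and the markers were named after their values were seen. Value columns left unused numbered 0. In simulated data with known changes of 1, 2 and 3 log2 units, the main contrast recovered 10.3%, 50.0% and 64.5% of changed loci. There 8.7% of calls were false. The simulated noise was normal and independent around a single mean per locus, without a shift between libraries. These shares hold for that setting and do not estimate the false share among the calls reported here. The 24 alternative settings covered scaling, filters, the pseudocount, a minimum change, the fit, the fungal loci and leaving out each library.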

Additional observations from a re-analysis of the deposited data

Results flagged for a closer look

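The interaction of light and high salt passed the test for 2 tubulin loci among the gene lists. Tubulin beta-5 (g13742) had an interaction of -3.1 log2 units (limma adjusted p = 0.021, and 0.0092 to 0.1 over 24 alternative settings), and tubulin alpha (g81447) one of -2.1 (limma adjusted p = 0.041, and 0.019 to 0.18). These calls held in 16 and 9 of the 24 settings.

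Fungal loci, which enter no comparison of plant loci, held 0.417% and 0.286% of the summed abundance in the libraries with both stresses, against 0.0709% to 0.0767% in the check libraries. Under low light alone the shares were 0.0904%, 0.293% and 0.203%, which overlap those of the combined stress.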

How the results depend on the processing

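Calls against the check moved by over 1.5 times where the change had to exceed 0.5 log2 units (343 loci). Leaving out 1 library gave 150 to 2231 calls against the check, 52 to 131 against low light alone, 37 to 177 against high salt alone and 23 to 158 for the interaction. Against low light alone 210 loci were called with no filter, 15 with a filter at 5, 66 with a pseudocount of 0.1, 50 with the minimum change and 0 by limma in a fit of only the groups compared (1267 at an unadjusted p under 0.05). Against high salt alone these settings gave 203, 11, 44, 40 and 4. The interaction gave 107 with no filter, 0 by limma with the filter at 5 (2055 at an unadjusted p under 0.05), 7 with the lower pseudocount, 23 with the minimum change and 72 without trend and robust moderation. The cause of these differences was not tested. With the replicate number as a block the calls numbered 1368 against the check, 75, 50 and 23. The labels do not state whether the replicate numbers pair the libraries. Deviations from the group mean correlated at -0.115 and -0.045 between same-numbered libraries with both stresses and in the check. Over all 26 same-numbered pairs these correlations ran from -0.169 to 0.146. With 2 libraries of the combined stress such values cannot decide whether the numbers pair. Of the 77 called loci among the 111 named, 66 kept their call after scaling and none reversed. With 2 libraries of the combined stress and an unknown read depth, small changes and scarce transcripts are the least certain.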
